A study of Mus musculus with 8 samples.

Results

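In a set of 396 CTCF regions, a region of the control list overlapped 2 or 3 separate regions of the NMDA list. In 95 of them, at least 1 of those NMDA regions also overlapped another control region. The set was chosen by overlap: each member is a control region on chromosomes 1 to 19, X or Y that overlaps at least 2 NMDA regions by at least 1 bp. It holds 396 of the 33815 control regions (1.17%), and is called split below. Of the other control regions, 30302 overlapped exactly 1 NMDA region and are called unsplit, and 3117 overlapped none. The NMDA list held 36186 regions, and those that overlap a split region are called its pieces. Because the overlap chose the members, the number of pieces, the gaps, the covered bases and the control widths are described without a test.

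CTCF binds a long DNA recognition sequence through its row of zinc fingers. With the cohesin ring it anchors chromatin loops and marks borders between chromatin domains, and in neurons many of its regions lie at promoters. A ChIP-seq region is the stretch over which reads are enriched, so it is wider than the site itself, and its summit is the position of highest enrichment. A wide region can cover several neighbouring sites or a site next to an open promoter.

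The lists came from primary cortical neurons of wild-type Swiss-Webster mice, taken at embryonic day 16 and collected on day 13 in vitro. Control cultures had no treatment, and NMDA cultures received 50 µM NMDA, which activates a type of glutamate receptor, for 10 minutes and then spent 50 minutes in drug-free medium. Each condition had 2 ChIP and 2 input replicates, and the 2 ChIP replicates of a condition were combined into 1 list. The culture protocol given for every sample also mentions the topoisomerase inhibitor etoposide, but no sample label lists it as a treatment. With 1 list per condition, no difference between conditions has a replicate error to be judged by, and the intervals below cover counting error between regions only. Read depth is unknown, so signals (the authors' −log10 p per region) were ranked within a list and never compared as levels between lists. The lists hold no expression values, so the neuronal label was not checked against marker genes.

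The promoters of 6 split regions show where the NMDA list broke off. They were picked after the values were seen, as 4 genes whose start site lay in a gap between pieces (Atf3, Tiparp, Jag1 and Sipa1l2) and 2 immediate early genes whose gap lay just upstream of a start inside a piece (Dusp1 and Nr4a3). Each line gives the 250 bases before the RefSeq start site (GRCm38.p6), 5′ to 3′ in the direction of transcription. Capitals mark bases inside the control region that no NMDA region covered, and lower case marks bases covered by a piece.
Atf3, chr1:191183334-191183583, minus strand: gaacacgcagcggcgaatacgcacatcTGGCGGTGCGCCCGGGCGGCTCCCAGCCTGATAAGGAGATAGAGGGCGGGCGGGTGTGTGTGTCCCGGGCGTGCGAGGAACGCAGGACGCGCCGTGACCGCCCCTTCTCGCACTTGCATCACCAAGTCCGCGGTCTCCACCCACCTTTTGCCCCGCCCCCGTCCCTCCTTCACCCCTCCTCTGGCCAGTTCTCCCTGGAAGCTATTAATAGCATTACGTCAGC
Tiparp, chr3:65528197-65528446, plus strand: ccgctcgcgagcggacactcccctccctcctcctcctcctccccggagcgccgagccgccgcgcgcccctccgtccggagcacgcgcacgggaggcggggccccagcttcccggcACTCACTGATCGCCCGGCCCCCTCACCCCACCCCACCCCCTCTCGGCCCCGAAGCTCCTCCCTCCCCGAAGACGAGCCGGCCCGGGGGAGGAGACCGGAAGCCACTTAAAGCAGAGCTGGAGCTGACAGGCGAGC
Jag1, chr2:137116521-137116770, minus strand: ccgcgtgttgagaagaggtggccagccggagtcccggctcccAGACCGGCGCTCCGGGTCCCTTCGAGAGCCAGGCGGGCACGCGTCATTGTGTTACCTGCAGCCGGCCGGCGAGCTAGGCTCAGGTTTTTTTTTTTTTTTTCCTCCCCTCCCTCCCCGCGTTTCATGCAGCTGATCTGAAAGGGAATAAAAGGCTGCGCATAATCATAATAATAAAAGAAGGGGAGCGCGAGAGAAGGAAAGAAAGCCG
Sipa1l2, chr8:125569864-125570113, minus strand: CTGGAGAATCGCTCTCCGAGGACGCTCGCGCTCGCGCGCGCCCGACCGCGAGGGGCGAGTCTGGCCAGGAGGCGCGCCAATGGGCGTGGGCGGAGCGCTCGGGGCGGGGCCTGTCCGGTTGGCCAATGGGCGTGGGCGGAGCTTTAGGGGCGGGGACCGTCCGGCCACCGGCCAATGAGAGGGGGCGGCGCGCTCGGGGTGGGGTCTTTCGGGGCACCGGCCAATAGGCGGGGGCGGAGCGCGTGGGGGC
Dusp1, chr17:26508473-26508722, minus strand: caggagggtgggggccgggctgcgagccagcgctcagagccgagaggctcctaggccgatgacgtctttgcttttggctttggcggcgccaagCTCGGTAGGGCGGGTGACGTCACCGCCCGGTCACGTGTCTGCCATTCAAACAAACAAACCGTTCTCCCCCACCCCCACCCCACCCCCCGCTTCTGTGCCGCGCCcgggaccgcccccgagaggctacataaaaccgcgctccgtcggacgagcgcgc
Nr4a3, chr4:48045055-48045304, plus strand: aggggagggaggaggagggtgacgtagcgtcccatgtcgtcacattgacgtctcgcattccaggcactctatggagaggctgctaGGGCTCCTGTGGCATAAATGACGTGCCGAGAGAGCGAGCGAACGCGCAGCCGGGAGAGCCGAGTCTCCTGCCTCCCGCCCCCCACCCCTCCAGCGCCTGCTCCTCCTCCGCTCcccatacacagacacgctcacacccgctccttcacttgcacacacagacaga
In these stretches the gap took 223 bases at Atf3, 135 at Tiparp, 208 at Jag1 and all 250 at Sipa1l2. It took 104 bases at Dusp1 and 113 at Nr4a3, where the start site itself lay in a piece.

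The members were mostly regions with a single break. In 391 of them the NMDA list had 2 pieces and in 5 it had 3, which made 797 pieces, 2.20% of the NMDA list, and 401 gaps. No NMDA region was a piece of more than 1 member. In the other direction, 520 NMDA regions (1.44%) overlapped 2 or more control regions, so breaks occurred in the control list as well. The members with 3 pieces lay at Smco4, Socs2, Rnpepl1, Gpr108 and Nr4a3.

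The gaps were short. Their median width was 134 bp (quartiles 91.0 and 221), with a range of 0 to 1452 bp. Of the 401 gaps, 124 (30.9%) were under 100 bp, 342 (85.3%) were under 300 bp and 30 were 500 bp or wider. An NMDA region in the list spans both replicates' own regions, in 36186 of 36186 cases, so each gap was open in both replicate columns. Within the columns the gaps were by construction at least as wide, with a median of 280 bp in the first replicate column and 208 bp in the second. The gap was wider in the first column in 250 cases and in the second in 150. The narrowest gap in either column was 76 bp among the split regions, and 76 and 75 bp in the columns over the whole NMDA list. The control list has no replicate columns, so the extents of its replicates are not known.

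**Figure D1:**
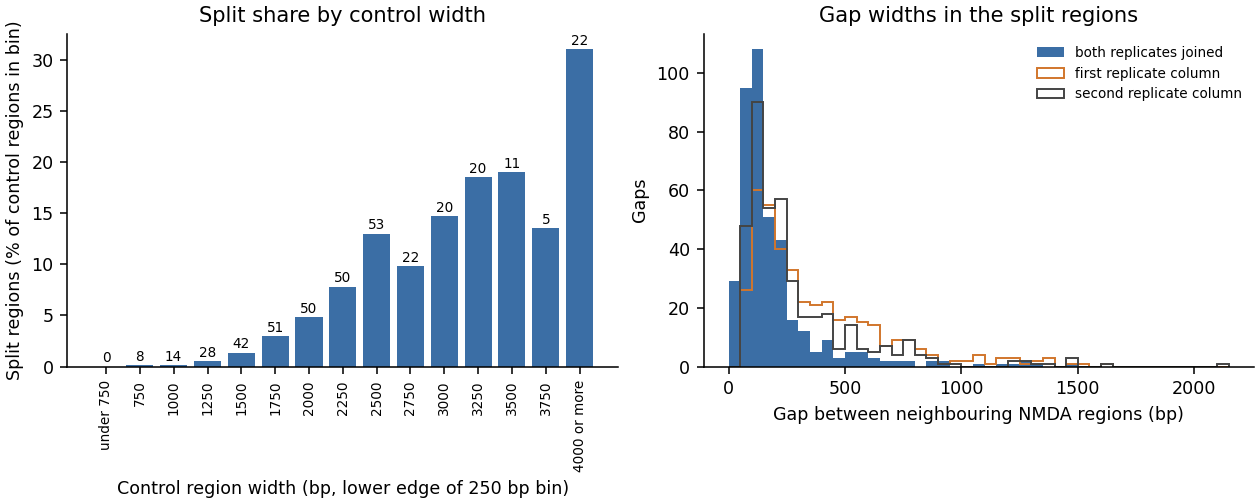
Left, the share of control regions in each 250 bp width class that were split, with the number of split regions above each bar. Right, the widths of the 401 gaps in 50 bp classes, as filled bars for the list and as outlines for each replicate column. The split share rose from 0.174% at 1000 to 1249 bp to 31.0% at 4000 bp or more, and most list gaps were under 300 bp. A wider region meets the overlap rule more easily by construction.

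Wide control regions were split more often than narrow ones, and a wider region meets the overlap rule more easily by construction. The widths are therefore described without a test. The split regions had a median width of 2270 bp (range 804 to 5644) against 1148 bp in unsplit regions. Of the 2710 control regions of at least 2000 bp, 253 (9.34%) were split, and of the 410 of at least 3000 bp, 78 (19.02%) were. Only 8 split regions were under 1000 bp, 0.0628% of the control regions of that width. Differences in share from unsplit regions below were therefore taken within 250 bp classes of control width unless stated. They cover 396 split and 26841 unsplit regions unless stated.

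Most of the control sequence was covered by the pieces. The pieces covered 805948 of 943567 bases (85.4%), and the median member was covered to 88.4% (quartiles 80.7 and 93.5). Coverage was at least 90% in 170 members, under 70% in 33 and under 50% in 2, 1 of them at Bcl11b (46.9%). Unsplit regions weighted to the same widths had a median coverage of 94.2%. Of the 401 gap midpoints, 245 (61.1%) lay in the middle one of 3 equal parts of the control region. The median midpoint was at 49.1% of the control width, counted from the lower coordinate. Any symmetric spread gives such a median. The rule also needs a piece on either side of a gap, which favours the inner part by construction. The gap midpoint lay a median of 660 bp from the control summit.

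The control summit lay in a piece in most members. In 307 of 396 (77.5%) the control summit lay in the strongest piece, in 70 in another piece, in 18 in a gap and in 1 outside the pieces. A piece had its own summit within 100 bp of the control summit in 319 members (80.6%), against 82.7% of width-weighted unsplit regions. The nearest piece summit was used in a split region, whereas an unsplit region has only 1 NMDA summit. A split region therefore had more chances to meet the limit, and these shares cannot show whether summits were kept equally often. The median distance to the nearest piece summit was 21.5 bp, and neighbouring piece summits were a median of 1426 bp apart. The control summit lay in the gap at Jag1, a ligand of Notch receptors, and at Kcnd3, a potassium channel subunit.

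The pieces of a member often differed in signal. They were ordered by signal itself, so a difference between strongest and weakest was fixed in advance. No comparison with pairs of unrelated NMDA regions was made. The strongest piece had a median signal of 156 (quartiles 77.2 and 307), at the median percentile 67.4 of the NMDA list, and the weakest a median of 42.7 (27.0 and 77.5), at percentile 26.4. The ratio of their −log10 p values had a median of 2.62 and ran from 1.00 to 48.1, under 2 in 156 members and at least 5 in 109. The weakest piece stood in the lowest 25% of the NMDA list in 191 members (48.2%). The order of the pieces was the same in both replicate columns in 335 members. The rank of the strongest piece was within 10 percentile points of the control region's rank in 241 members. In 82 members both the strongest and the weakest piece stood above the NMDA median.

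**Figure D2:**
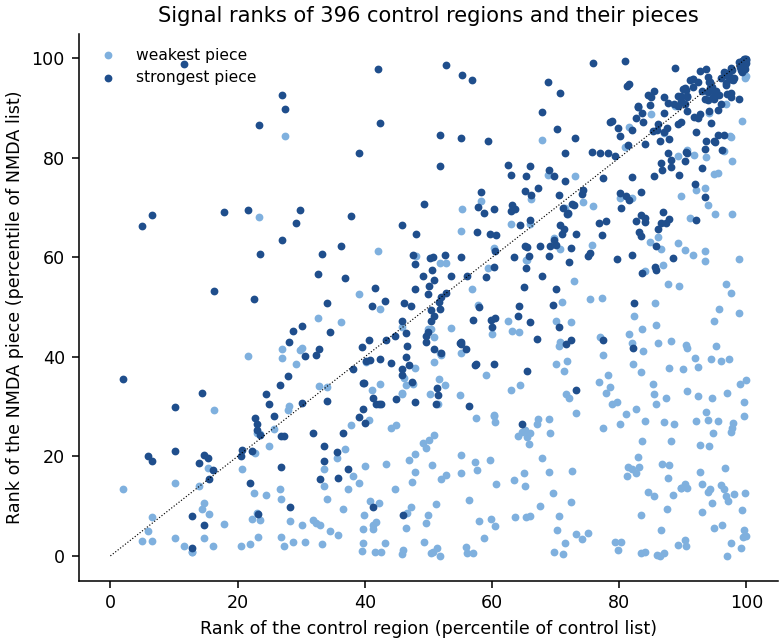
Each split region is drawn as 2 points, at its signal percentile in the control list (x axis) and at the NMDA percentile of its strongest piece (dark) and weakest piece (light). The dotted line marks equal percentiles. Dark points lie along the line, with a median difference of −0.96 points, and light points mostly lie below it, with a median difference of −32.2 points.

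A neighbouring control region was involved in 95 members. There, at least 1 piece also overlapped another control region, and in 93 of the 95 a piece overlapped the neighbour by more bases than the member. In the other 301 (76.0%) every piece belonged to the member alone. The 301 were wider (median 2393 against 1743 bp), and their weakest pieces ranked lower (median percentile 19.2 against 45.0). The median gaps were 136 and 123 bp. At Ntng2, Rps15, Gli1 and Nfic a piece also lay over a neighbouring control region, and at Atf3, Dusp1, Klf10, Nr4a3, Egr1, Tiparp, Smc3, Jag1 and Bcl11b none did.

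Membership turned on few bases in some cases. The smallest overlap of a piece with its control region was under 10 bp in 5 members and under 50 bp in 27. The 5 closest to the limit lay nearest to Myl10 (1 bp), Pfkl (7 bp), Sh3pxd2b (7 bp), Arl15 (9 bp) and Col12a1 (9 bp). Just outside the rule, 7 unsplit regions had a further NMDA region less than 10 bp away and 48 had one less than 50 bp away. The closest of these lay on chromosomes 6, 15, 4, 17 and 8, with the further NMDA region 0, 1, 2, 3 and 4 bp from the control region.

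Split regions were found at ends of protein-coding genes more often than unsplit regions of similar width. The control summit was within 1 kb of an annotated gene end in 146 of 396 split regions (36.9%, 95% Wilson interval 32.3 to 41.7). Within width classes the share was 36.8% against 28.7%, a difference of 8.11 points (95% interval 3.21 to 13.02). Matched on width and control signal quartile, over 358 split and 12162 unsplit regions, the difference was 5.73 points (0.753 to 10.7). Before width was taken into account the difference was 19.6 points (14.9 to 24.4). The gene table gives no strand, so this counts both ends of a gene. For gene starts alone, from the strand-aware promoter table, 111 split regions (28.0%) had their summit within 1 kb, a width-matched difference of 5.80 points (1.25 to 10.3). With only the regions whose NMDA regions touched no other control region, the differences were 9.50 points (3.71 to 15.3) at gene ends and 8.40 points (2.91 to 13.9) at starts. When only regions with a score of at least 830 in both lists were used, the difference at gene ends fell to 2.73 points (−3.19 to 8.65). For gene starts this limit was not run.

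Another 154 split regions had their summit inside a gene (38.9%) and 96 between genes (24.2%). The matched differences were −3.81 points (−8.77 to 1.15) inside genes and −4.31 points (−8.66 to 0.0445) between genes, and both intervals include 0. The weakest piece had a median NMDA percentile of 18.1 at gene ends, 25.5 inside genes and 38.3 between genes. The ranks of all NMDA regions by location were not compared. Members whose pieces touched no other control region, whose weakest pieces ranked lower, were 120 of 146, 113 of 154 and 68 of 96 at these locations. The median gap differed little over these locations, at 138, 128 and 136 bp.

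For their width, split regions were weak in the control list. Their median control signal was 267.5, at percentile 69.0, against 185.1 and percentile 54.4 in all unsplit regions. Unsplit regions weighted to the same widths had a median signal of 362.8, at percentile 80.5. Within width classes 68.8% of split and 80.4% of unsplit regions lay above the median control signal, a difference of −11.6 points (−15.9 to −7.24). Without width matching the sign was opposite, at 15.4 points (10.7 to 19.7). With a score of at least 830 in both lists the matched difference was −4.39 points (−9.00 to 0.226).

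Another control region lay within 10 kb of 250 split regions (63.1%). The matched share was 63.6% against 57.3% in unsplit regions, a difference of 6.26 points (1.43 to 11.1). This measure is not independent of the overlap that chose the members. All 95 members with a piece over another control region had a neighbour within 10 kb, against 155 of the other 301. The difference is therefore given as a description, and leaving those members out would lower it by construction. In all, 9 differences between split and unsplit regions were computed, and the intervals are not adjusted for that number.

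**Figure D3:**
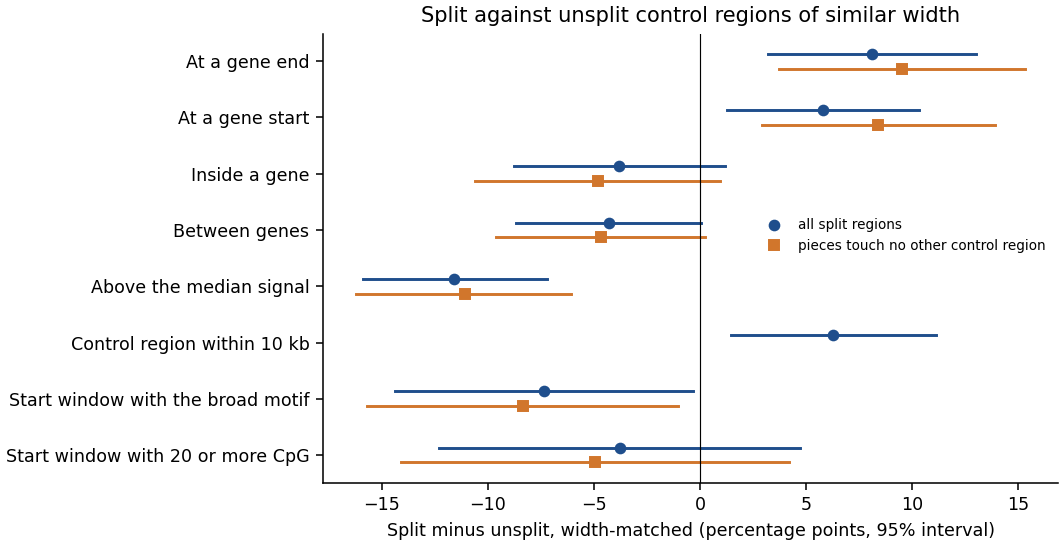
Width-matched differences in percentage points, split minus unsplit, with 95% intervals, for all 396 split regions (circles) and for regions whose NMDA regions touched no other control region (squares). Gene ends lie above 0 at 8.11 and 9.50 points and signal lies below 0 at −11.6 and −11.1 points. No square is drawn for neighbours within 10 kb, because that restriction removes regions with a close neighbour.

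Promoter windows inside split regions held a match to a broad form of the CTCF motif less often than those inside unsplit regions of similar width. The share of windows rich in CpG did not differ beyond counting error. A RefSeq window of 300 bases around a start site lay wholly inside 123 split and 3003 unsplit regions. The table holds windows for 17492 of 21887 protein-coding genes (79.9%). The median window had 26 CpG in split regions, 24 in unsplit regions and 13 over all 21263 windows. These medians and the motif counts that follow are not matched for width. The CTCF core consensus was found on either strand in 0 of 123 split windows, which allows a share of up to 3.03% (Wilson), in 92 of 3003 unsplit windows (3.06%) and in 119 of all windows (0.560%). A broader form that keeps its most fixed letters, CCNNNAGNNGGC, with which every core match overlaps, was found on either strand in 20 split windows (16.3%), 733 unsplit windows (24.4%) and 2100 of all windows (9.88%). Within width classes the difference was −7.38 points (−14.4 to −0.348) over 116 split and 2094 unsplit windows. It was not planned, is 1 of the 9 unadjusted differences, and its interval ends near 0. Split regions were weak for their width, and windows were not matched on control signal. The share of windows with 20 or more CpG differed by −3.80 points (−12.3 to 4.69). A match is a run of letters, not a bound site.

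Most of the start sites lay in a piece, as did most bases: over all members the pieces covered 85.4% of the control bases. The shares below are near that value and are given as a description. Of the 123 start sites, 60 lay in the strongest piece, 42 in another piece, 20 (16.3%) in a gap and 1 at an outer edge. The median window had 23 CpG where the start lay in the strongest piece, 29 in another piece and 34 in a gap. Besides the 4 genes printed above, the starts in a gap included those of Epha4, an ephrin receptor, Bmpr1a, a receptor of bone morphogenetic proteins, Prkaa1, a catalytic subunit of AMP-activated kinase, and Ptma, which encodes prothymosin alpha. Of the 111 split regions with their summit at a start, 78 (70.3%) had the start between the summits of their strongest and weakest pieces. The weakest piece lay downstream of the strongest in 68 (61.3%, Wilson interval 52.0 to 69.8). These regions were chosen by a summit within 1 kb of a start, and no comparison share was computed. Both shares are a description and are not among the 9 differences.

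The full cyclic AMP response element, TGACGTCA, which binds CREB family factors and reads the same on both strands, was in the windows of 5 split regions (4.07%): Clasp2, Dusp1, Dusp8, Nr6a1 and Olfm2. It was in 77 unsplit windows (2.56%) and 475 of all 21263 windows (2.23%), and these shares are not matched for width. This motif was searched after the sequences had been seen.

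Immediate early genes are switched on rapidly by neuronal activity. The list had 4 of 36 listed members with a split region at an end (11.1%), against 0.722% of all protein-coding genes. They were Nr4a3, Atf3, Dusp1 and Klf10. Counting any base of a split region in the gene span widened by 1 kb, Egr1 and Nr4a2 joined them, 6 of 36 (16.7%) against 1.58% of all genes. The list was drawn up with earlier results on these genes known, so the counts are a description. Control regions at the ends of these genes were also wide, with a median of 1888 bp against 1309 bp over all protein-coding gene ends. Of their 9 control regions of at least 2000 bp at an end, 4 were split, against 98 of 916 (10.7%) over all protein-coding gene ends.

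Nr4a3, a nuclear receptor gene induced by activity, had the most divided region of the list. Its control region (chromosome 4, 48044425 to 48048762, mm10) had a signal of 298 and was 4338 bp wide. The NMDA list had 3 pieces there, with signals of 45.9, 53.3 and 49.0 and gaps of 113 and 1305 bp, and 60.6% of the control bases were covered. In the first replicate column the 3 pieces had −log10 p values of 34.8, 34.2 and 29.2, and in the second 11.2, 19.1 and 19.7. All 3 pieces were below the NMDA median of 90.9 and close to each other in signal. The wider gap measured 1305 bp in the first column and 2131 bp in the second, where by construction it cannot be narrower than in the list.

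Atf3 encodes a stress-induced bZIP transcription factor. Its control region (chromosome 1, 191182292 to 191184745) had a signal of 450, and its pieces had signals of 153.5 and 50.5 with a gap of 276 bp. The strongest piece had 76.6 and 76.9 in the 2 replicate columns and the weakest 32.4 and 18.1, so both columns gave the same order. The control summit lay 23 bp from the summit of the strongest piece, and the start site lay in the gap.

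Dusp1 encodes a phosphatase that switches off MAP kinases. Its control region (chromosome 17, 26507528 to 26510199) had a signal of 620, and its pieces had signals of 257 and 231 with a gap of 104 bp. The order of the pieces was not the same in the replicate columns, with 114 and 143.8 in the first and 143.0 and 87.1 in the second. The control summit lay in the weaker piece, 29 bp from its summit.

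Klf10 encodes a zinc finger transcription factor. Its control region (chromosome 15, 38299409 to 38302103) had a signal of 188.5, and its pieces had signals of 72.0 and 32.2 with a gap of 118 bp. The gap was 118 bp in the first replicate column and 538 bp in the second. Egr1, a zinc finger factor of the early response, had a stronger region (chromosome 18, 34859627 to 34862512, signal 907) whose summit lay 1176 bp from the gene. Its pieces had signals of 502 and 64.9 and a gap of 145 bp. At Nr4a2, a nuclear receptor gene, the control region had a signal of 197, and the pieces had 83.4 and 19.1 with a gap of 621 bp. The weaker Nr4a2 piece also overlapped a neighbouring control region.

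In the other gene lists the counts were small, and the shares are set against the same 0.722% of all protein-coding genes at an end and 1.58% in the widened span. Among 26 later activity-regulated genes, Tiparp, a mono-ADP-ribosyltransferase, and Nptx1, a secreted pentraxin of synapses, had one at an end (7.69%). Tiparp had a control signal of 687 and pieces of 402 and 83.0, and Nptx1 had 255 and pieces of 73.9 and 42.8. Of 21 CTCF and cohesin genes, 1 did (4.76%): Smc3, a core cohesin subunit, with a control signal of 460 and pieces of 260.5 and 33.9. Of 82 ribosomal protein genes, 1 did (1.22%), Rps15. None of 37 synaptic genes and none of 36 neuronal transcription factor genes had a split region at an end. In the widened span, 1 of the 37 synaptic genes had one (2.70%), Grin2a, an NMDA receptor subunit, as did 3 of the 36 neuronal factors (8.33%), Bcl11b, Neurog2 and Nfic. Of the control regions of at least 2000 bp at an end, 2 of 3 were split for the later activity-regulated genes, 1 of 3 for the CTCF and cohesin genes, 0 of 3 for the synaptic, 0 of 5 for the ribosomal protein and 0 of 6 for the neuronal factor genes, against the 10.7% over all protein-coding gene ends.

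**Figure D4:**
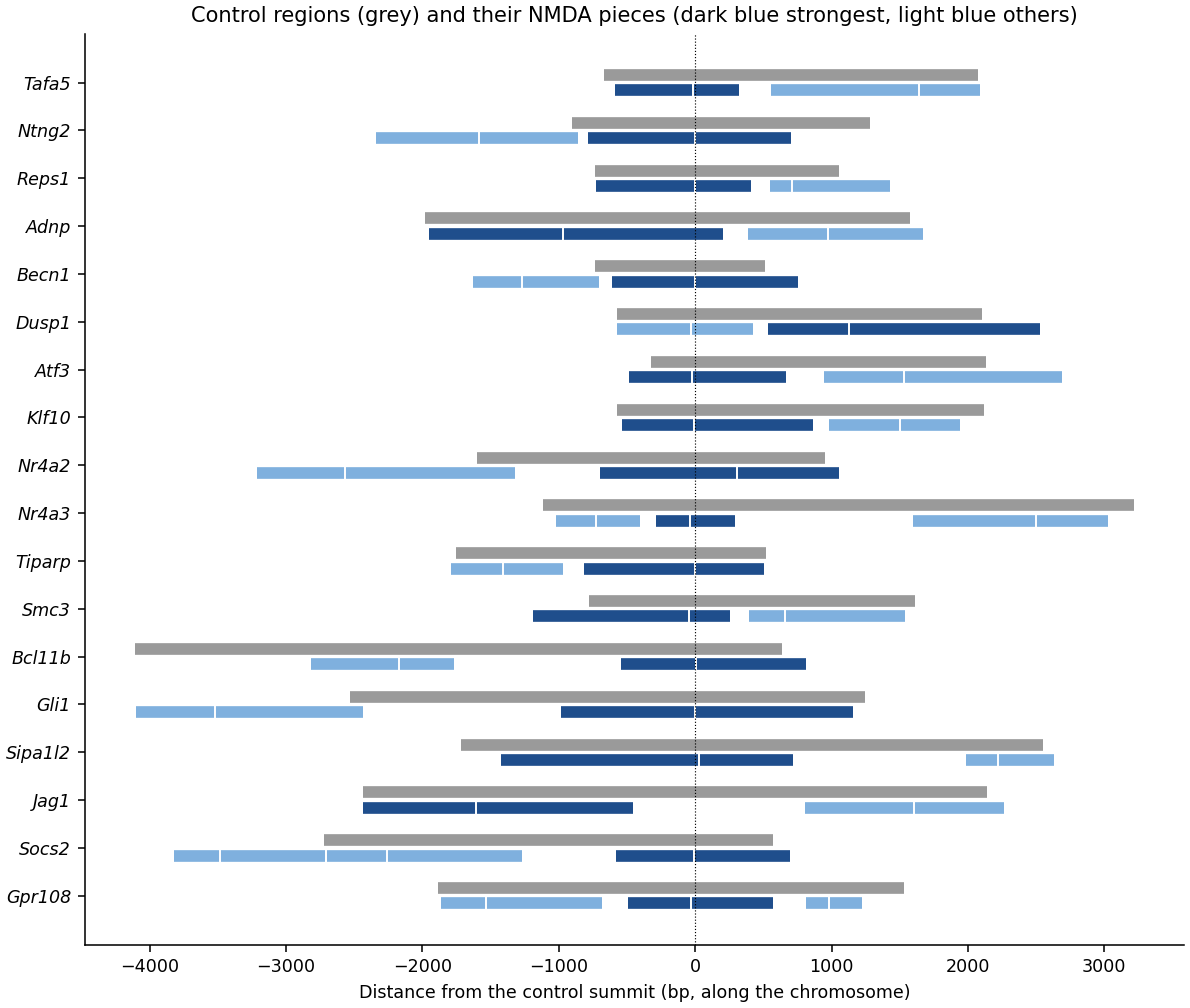
Control regions (grey) of 18 named genes and the NMDA regions that overlap them, with the strongest piece in dark blue, the others in light blue and piece summits as white marks. The x axis is the distance in bp from the control summit. In all rows but Adnp, Dusp1, Nr4a2 and Jag1 the summit of the strongest piece lies within 50 bp of the control summit.

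The strongest member lay inside Tafa5, which encodes a secreted chemokine-like protein (chromosome 15, 87623506 to 87626245). It had a control signal of 2339, at percentile 99.95, and pieces of 742 and 504 with a gap of 236 bp. Among the 10 strongest at gene ends, most had 1 strong and 1 weak piece. At Reps1, an endocytosis adaptor, the pieces had 949.7 and 22.1. At Becn1, a regulator of autophagy, they had 1102 and 28.7, and the piece of 28.7 overlapped the control region by only 30 bp. At Man2a2, a Golgi mannosidase, the pieces had 588 and 20.0. Adnp, which encodes a chromatin protein with a homeodomain, differed from these: its pieces had 601 and 487 with a gap of 184 bp, and their summits lay 969 and 971 bp on either side of the control summit. The rest of these 10 lay at Ntng2, Nol9, Armc5, Ppp2cb, Pcbp2 and Acss2, with ratios of the stronger to the weaker piece from 2.16 at Acss2 to 19.1 at Ntng2. The weaker piece overlapped the control region by only 40 bp at Ntng2 and 56 bp at Acss2.

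The 5 widest gaps were at Gli1, Nr4a3, Sipa1l2, Jag1 and Bcl11b. Gli1, the transcription factor of hedgehog signalling, had the widest, 1452 bp, in a control region of 3773 bp with pieces of 374 and 317. The piece of 317 overlapped the Gli1 control region by only 91 bp and lay mostly over its neighbour. Sipa1l2, which encodes a Rap GTPase activator of the synaptic SPAR family, had a gap of 1267 bp and pieces of 125 and 44.3. Jag1 had a gap of 1259 bp and pieces of 244 and 190, and Bcl11b, a transcription factor of cortical projection neurons, had a gap of 1226 bp and pieces of 180 and 122. In the replicate columns these gaps cannot be narrower than in the list, because a list region spans both columns. The widest values were 1623 bp at Gli1 in the first column and 2131 bp at Nr4a3 in the second.

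The members with 3 pieces other than Nr4a3 had 1 strong piece and weaker ones beside it. Socs2, a suppressor of cytokine signalling, had pieces of 25.7, 76.2 and 216 along the chromosome, and the piece of 25.7 overlapped the control region by only 11 bp. Gpr108 had 27.8, 158 and 19.2, Smco4 had 242, 128 and 23.8, and Rnpepl1 had 76.9, 156 and 43.6. A piece at Rnpepl1 also overlapped another control region. In all 4 the control summit lay in the strongest piece.

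The 5 weakest members by control signal lay nearest to Mmp14, a membrane metalloproteinase, Aknad1, E2f3, a cell cycle transcription factor, Six5 and Coq10b. Their control signals ran from 38.0 to 45.4. At Six5, Aknad1 and Mmp14 these put the control regions at percentiles 6.52, 4.97 and 1.94 of the control list, while the strongest pieces stood at percentiles 68.5, 66.4 and 35.5 of the NMDA list. At each of the 3 a piece also overlapped a neighbouring control region. At Coq10b no other control region was touched, and the pieces had 34.6 and 24.9 with the start site in a gap of 199 bp.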

How the data were processed

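CTCF ChIP-seq was analysed from 1 region list per condition, each covering 2 biological replicates. The submitters' processing notes name MACS2, BWA, SAMtools, Trimmomatic and FastQC and the builds mm10 and GRCm38.p6. Tool versions and the settings used were not given in the sources used here. The deposited lists are named as output of the IDR procedure. The deposited signal is the authors' −log10 p per region, which in the NMDA list equals the sum of the 2 replicate columns in 36186 of 36186 regions (tolerance 0.001). Which column is which replicate is not stated. The deposited score rises with reproducibility to a ceiling of 1000 and served only as a filter. The input libraries were not analysed here, and sequencing depth, which affects region widths and gaps, is unknown.

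Overlaps were counted in Python 3.11 scripts (pandas, numpy). Location was taken from control summits and RefSeq tables of GRCm38.p6, the assembly of mm10. Exons, introns and strand are not in the gene table, so either end of a span counts as a gene end. Gene starts came from the RefSeq promoter windows (250 bases before to 50 after the start), and where several lay in a region the one nearest the control summit was used. Exonic and intronic positions were not analysed here. Shares were compared by a Mantel-Haenszel difference over 250 bp classes of control width holding 5 or more split and unsplit regions each, with Greenland-Robins 95% intervals, or Newcombe intervals without matching. No p-values were computed, since regions are not replicates of a condition. The steps were tested on simulated data.

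The members and gene lists were chosen with earlier results of these data known. Named members were the 10 strongest at gene ends, those with most pieces (at most 8), the 5 with the widest gap, the 5 weakest, all members from the lists of immediate early, late activity-regulated and cohesin genes, and up to 6 of each other list. The nearest gene end gives a region its name, and unnamed gene models were left out. Other genes were chosen after their values were seen. Alternatives changed the overlap, score, joining of gaps, width classes, matching on control signal, gene types and gene distances.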

Additional observations from a re-analysis of the deposited data

How the results depend on the processing

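The count of 396 split regions depended on the gaps and on the weakest NMDA regions. It was 59 with NMDA regions joined across gaps under 300 bp and 260 with NMDA scores of at least 830, and between 275 and 374 under the other 6 alternatives. With a score of at least 830 in both lists, the gene end difference became 2.73 points and the signal difference −4.39 points, and neither interval excluded 0. Without width matching, the signal difference reversed to 15.4 points, and the differences between genes (−15.1) and for 2 or more genes starting inside (1.34) excluded 0. The difference inside genes excluded 0 with gaps under 100 bp joined (−6.76) and with genes of all types (−5.41), and that between genes did at 500 bp from an end (−4.52). The difference in neighbours was 3.03 points with an overlap of at least 50 bp, 3.30 with gaps under 100 bp joined and 1.48 at 20 kb, and −7.91 with at least 50% of each piece inside and −4.91 among regions touching no other control region. Those last 2 alternatives remove regions with a close neighbour by construction and do not test that difference. The median gap of 134 bp was 280 and 208 bp in the replicate columns alone. The differences at gene starts and for the broad motif kept their sign and excluded 0 under the 4 alternatives run for each, and the CpG interval included 0 in all 4. Those 4 did not include the score limit of 830, under which the gene end interval included 0, or matching on control signal. The alternatives with 50% of each piece inside (for the differences), with untouched neighbours and for the gene start and window results were chosen after seeing the data. No paired analysis was possible because each condition is 1 list over its replicates. Unknown depth limits what a gap can show, and the cause of these changes was not tested.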
